A study of Rattus norvegicus with 24 samples.

Results

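The control group of an inhalation study of hexanal, an aldehyde of indoor air, was 6 Fischer-344 rats that breathed filtered clean air, and their lungs are described here as the transcriptome of the unexposed rat lung. The members were chosen by the group label alone and make up 6 of the 24 arrays of the series. Rats 1, 2 and 3 were males and the others were females (rats 21, 22 and 23). The labels gave an age of 7 to 8 weeks at the start and exposure in a nose-only chamber for 4 h/day on 5 days/week. The treatment protocol of the labels gave 5 weeks of exposure, while the published methods gave 4 weeks. The remaining 18 rats breathed hexanal at 600, 1000 or 1500 ppm (the low-dose, middle-dose and high-dose groups, with 6 rats each) and serve here only to show whether a pattern of the control rats was also seen in other animals. All rats were of 1 strain, were held in the same kind of chamber and gave whole-lung RNA, so that every value is a mixture of all cell types of the lung and of the tissue dissected with it. Each RNA was labeled with Cy3 and hybridized alone to an Agilent rat oligo array.

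Values are log2 processed signals of a probe minus the 75th percentile of all probes on the same array, so that 0 is the signal of a probe brighter than 3 in every 4 probes, and 1 unit is a doubling. That percentile lay at 2316.65 to 3067.66 intensity units on the control arrays, and between 77.84% and 81.04% of probes were well above background by the flag of the scanner software. Any pair of control arrays had a Pearson r of 0.9816 to 0.9923 across probes detected on all 6. Rat 2, a male, had an r of 0.9849 and 0.9864 with the males 1 and 3. With the females 21, 22 and 23 its r was 0.9889, 0.9846 and 0.9886. The males lay on 1 slide and the females on another, so that sex and slide cannot be told apart among the control rats. Precision is limited by having 6 arrays. A probe has its own brightness, and the order of genes by signal is therefore an order of probes and not of mRNA molecules.

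As background, the alveolar wall is made of flat type I cells that carry gas exchange, cuboidal type II cells that make surfactant, a dense capillary endothelium, and fibroblasts, with macrophages on the air side. The conducting airways are lined by ciliated cells and by club cells, which secrete secretoglobins. In rodents the walls of the larger pulmonary veins carry a sleeve of cardiac muscle, and the bronchi carry small aggregates of lymphoid tissue.

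The brightest genes of the clean-air lung were those of surfactant, lysozyme, hemoglobin, the ribosome and the club cell. Sftpc, the hydrophobic surfactant protein C made only by type II cells, was at 7.47 in the lowest rat, 7.86 at the median and 8.04 in the highest rat (mean 7.78 ± 0.23, SD, n = 6). Sftpb, surfactant protein B, was at 7.17 in the lowest rat, 7.25 at the median and 7.35 in the highest. Scgb1a1, the main secretoglobin of club cells, was at 6.79, 6.95 and 7.23 in the same order. None of these 3 genes differed by more than 1.5-fold between any pair of rats. Lyz2, the lysozyme of macrophages and type II cells, had a mean of 7.42 ± 0.31, and its 3 female values (7.64 to 7.74) were above its 3 male values (7.04 to 7.37). Sftpc was split in the same way (7.89 to 8.04 and 7.47 to 7.83). In the comparison of the sexes described last, 0 of the 50 brightest genes with a symbol were called.

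The upstream sequences of 3 genes are shown because they stand for the groups that lead the results: Scgb1a1 for the bright lung-specific genes, Rpl41 for the ribosomal genes, and Alb for the genes that varied most between rats. Each run is the 250 bases before the annotated start in RefSeq (build GRCr8), read 5′ to 3′ on the strand of the gene. Capitals mark TATAAA or CCAAT on either strand.
Scgb1a1: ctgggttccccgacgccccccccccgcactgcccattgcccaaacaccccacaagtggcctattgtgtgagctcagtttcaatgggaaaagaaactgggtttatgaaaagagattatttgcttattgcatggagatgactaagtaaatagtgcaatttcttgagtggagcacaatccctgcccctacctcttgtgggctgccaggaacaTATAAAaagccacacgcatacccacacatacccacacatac
Rpl41: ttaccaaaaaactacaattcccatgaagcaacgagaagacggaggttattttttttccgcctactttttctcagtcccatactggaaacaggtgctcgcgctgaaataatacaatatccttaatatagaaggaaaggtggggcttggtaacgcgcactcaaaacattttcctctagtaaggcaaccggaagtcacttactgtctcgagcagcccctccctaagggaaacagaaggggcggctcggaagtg
Alb: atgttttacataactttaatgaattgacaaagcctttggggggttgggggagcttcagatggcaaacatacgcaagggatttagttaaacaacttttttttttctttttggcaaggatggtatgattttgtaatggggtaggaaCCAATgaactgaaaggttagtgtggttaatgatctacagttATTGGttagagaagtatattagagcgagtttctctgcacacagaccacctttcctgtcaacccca
The first run is chr1:215409687-215409936 (minus strand), the second chr7:1563498-1563747 (minus strand) and the last chr14:17906980-17907229 (minus strand). TATAAA began 41 bases before the start of Scgb1a1. It was in 13.1% of all 27457 upstream windows of this length, in 1 of the 21 windows found for the 25 ribosomal genes (Fau among them) of the 50 brightest genes, and in 6 of the 20 windows found for the other 25. CCAAT was in 34.3% of all windows, in 8 of the same 21 and in 6 of the same 20. The Alb window held CCAAT at 2 places, 1 on each strand. Of the 50 genes that varied most, 38 had a window, with TATAAA in 8 (21.1%) and CCAAT in 11 (28.9%). Alb is 1 example of them and does not show their usual motifs. A match in such a window is a description of letters and says nothing of whether a factor binds there.

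Among the 20 brightest genes with a symbol, 9 encode proteins of the ribosome (Rpl41, Rps12, Rplp0, Rpl21, Rps23, Rpl37a, Rplp2, Rpl13a and Rpl35). Of the 50 brightest, 24 carry a ribosomal symbol, and Fau encodes a further ribosomal protein as a fusion. The 79 ribosomal genes on the array had a median level of 5.91 and a median SD of 0.07 between rats, and 76 of them were detected on all 6 arrays. Globin transcripts of red blood cells were next. On the brightest probe of each, Hba-a1 had a mean of 7.46 ± 0.22, Hbb of 6.99 ± 0.24 and Hbb-b1 of 7.14 ± 0.48. The other probes of Hba-a1 (5.01 ± 0.70) and Hbb (3.77 ± 0.74) were dimmer and varied more. Both were highest in rat 3 and lowest in rat 22. By brightest probe, Hbb-b1 had the largest SD among the 50, with 6.23 in rat 22 and 7.12 to 7.65 in the other 5 rats. Of 6 erythroid genes, 5 were lowest in rat 22, against 15.7% of all genes detected on every array. Ferritin light chain (Ftl1, 6.99 ± 0.15) and gamma-actin (Actg1, 6.88 ± 0.10) completed the genes of general cell function among the first 20. The other Actg1 probe had a mean of 3.42.

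Ceacam9, a cell adhesion molecule of the carcinoembryonic antigen family, and Twnk, the helicase of mitochondrial DNA, also stood among the 20. The Ceacam9 probe had the highest mean of all probes (7.81 ± 0.26) and, like Sftpc, was lowest in rat 1 and highest in rat 23. The values of Ceacam9 and Sftpc lay within 0.08 of each other in each of the 6 rats. The order is not particular to this pair, since Hba-a1, Rpl41, Ftl1 and several unnamed bright probes had the same lowest and highest rats. The 75th percentile that was subtracted was highest in rat 1 (3067.66) and lowest in rat 23 (2316.65), and its part in this order was not tested. Ceacam9 had no other probe. Twnk had a mean of 6.95 on its brightest probe and of -2.20 on its other probe, and Igtp, an interferon-inducible GTPase, had 6.49 and -0.79. Probes of the same gene therefore disagreed for these, and the signal of the brighter probe cannot be assigned to the named transcript from these data. Of the 50 brightest of all 27455 genes or unnamed probes, 24 had no symbol, and the 50 took between 9.0% and 10.8% of the summed signal of each control array. The last gene on the list with a symbol was Sparc, a matrix protein, at 6.32, and the first gene off it was Sftpd, surfactant protein D, at 6.31.

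**Figure D1:**
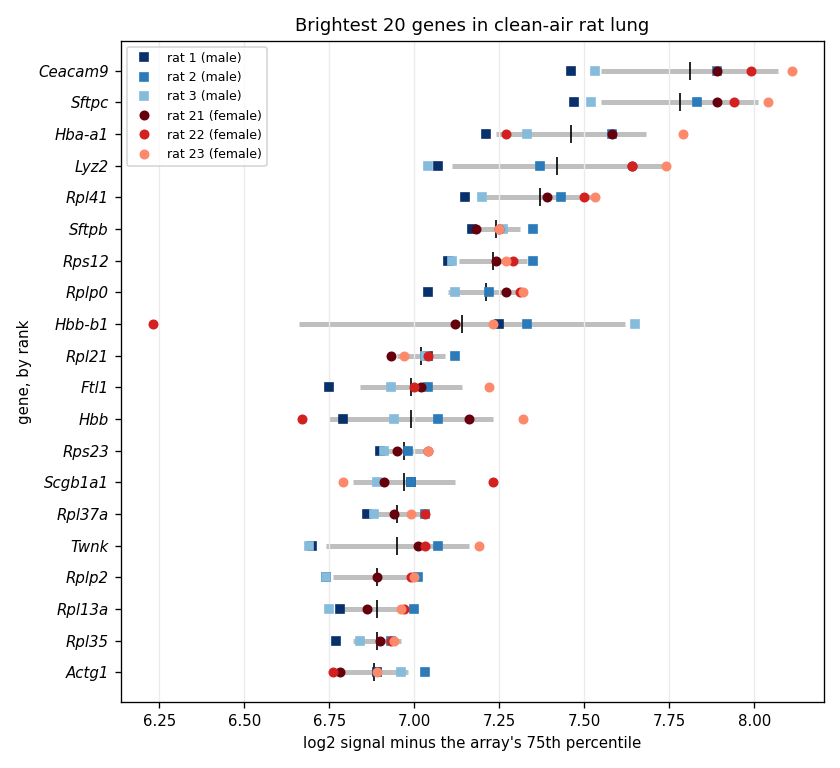
Log2 signal minus the array's 75th percentile (x axis) of the 20 brightest genes with a symbol (y axis, by rank) in each of the 6 clean-air rats; squares are males, circles females, the tick is the mean and the grey bar is 1 SD to each side. Hbb-b1 in rat 22, at 6.23, lies farthest from the other rats.

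Markers of the lung's own cell types were detected in nearly every case, as far as the array holds them. In 12 lists of lung cell types, 73 of the 80 genes on the array (91.2%) were well above background on all 6 arrays, and 3 (3.8%) were on none, against 77.7% and 13.0% of all 15443 genes with a symbol. All 9 type II markers on the array and 9 of the 10 type I markers were detected in every rat. Ager, the receptor that marks type I cells, was at 4.08 in the lowest rat, 4.54 at the median and 4.87 in the highest. Clic5, a chloride channel protein of type I cells, was at 5.95, 6.11 and 6.23. Kdr, the endothelial receptor for vascular endothelial growth factor, was at 5.37, 5.71 and 5.96, and Mgp, a matrix protein of fibroblasts and smooth muscle, at 5.96, 6.30 and 6.61. The list means of these cell types were close in the 6 rats, ranging from 4.45 to 4.60 for type II cells, from 3.34 to 3.71 for type I cells and from 1.66 to 2.11 for endothelium. In rat 22 the type I list and the endothelial list were at their lowest, with 7 of the 9 type I genes detected on every array lowest in that rat against 15.7% of all genes detected on every array.

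Markers of immune cells were detected at a share somewhat above that of all genes, a difference that was not tested. Of 63 genes on the array in 9 immune lists, 54 (85.7%) were detected on all 6 arrays and 4 (6.3%) on none. Of all genes with a symbol, 77.7% were on all 6 and 13.0% on none. Cd74, the invariant chain of MHC class II, had a mean of 5.13 ± 0.15, and the macrophage marker Cd68 of 1.65 ± 0.28. The alveolar macrophage receptor Marco was not well above background on any array, nor were the eosinophil peroxidase Epx and the granule protein gene Ngp. Fewer cells of a type and less RNA per cell cannot be told apart in such bulk samples.

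Transcripts below detection were the other side of the baseline. Of 30367 probes, 22476 (74.0%) were well above background on all 6 control arrays, 3385 (11.1%) on 1 to 5 of them and 4506 (14.8%) on none. The last count depended on the flag, with 1650 by the software's positive-and-significant flag. Of 15443 genes with a symbol, 2009 (13.0%) had no probe well above background on any control array. Many were receptors of the sensory organs. No probe was detected for 700 of the 1149 olfactory receptor genes on the array (60.9%), for 58 of 113 vomeronasal receptor genes (51.3%) and for 19 of 34 taste receptor genes (55.9%). The same held for 20 of 44 defensin genes (45.5%), but for only 1 of 16 keratin-associated protein genes (6.2%). These families were chosen after the undetected genes were seen. Even so, 166 olfactory receptor genes had a probe well above background on all 6 arrays. One of them, Or8b57 (mean -5.45 ± 1.38), was among the 50 genes that varied most.

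In 9 lists of genes typical of distant organs, 29 of 69 genes (42.0%) were on no control array and 31 (44.9%) were on all 6. Of all genes with a symbol, 13.0% were on none and 77.7% on all 6. The testis genes Tnp2, Ddx4, Dazl, Odf1, Akap4 and Acrv1 were among the undetected, as were the brain genes Gfap, Syn1, Gria2, Neurod1, Slc17a7 and Gad2 and the pituitary hormone genes Gh1, Prl, Tshb and Cga. Detection in the same lists was not limited to dim signals. Lhb, the beta chain of luteinizing hormone, had a mean of -0.15 ± 0.16 and Ctrb1, a pancreatic protease precursor, of -0.70 ± 0.58, and both were well above background in every rat. Undetected means not well above background by the flag of the scanner software, and not that the signal could not be separated from background. Of the 4506 undetected probes, 535 were positive and significant on all 6 control arrays by another flag of that software. The dimmest probe that was well above background had a signal of 18.22 to 25.33 on the control arrays.

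The undetected probes were mostly dim in the exposed rats too, which the choice of probes did not use. Of the 4506, 2689 (59.7%) were well above background on none of the 18 exposed arrays, 7 were so on 9 or more, and 0 were so on all 6 arrays of any exposed group. Of the 22476 probes detected on every control array, 20798 (92.5%) were detected on all 18 exposed arrays and 0 on none of them.

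Rats differed little for most genes. Among 20213 genes or unnamed probes detected on all 6 arrays, the median SD between rats was 0.21, the 90th percentile was 0.49 and the 99th percentile was 1.08. The SD was at least 1 for 269 of them (1.33%), of which 114 had a symbol. This count depended on background correction and filter, with 2093 after normexp correction and 1502 where detection on 1 array was enough. Dim genes varied more. Among the 5054 dimmest (means up to -3.40) the median SD was 0.33 and 3.01% reached an SD of 1, while among the 5053 brightest the median was 0.13 and 0.34% did. For 1236 genes whose probe was spotted up to 10 times on each array, the median SD between spots of an array was 0.055 and the median SD between rats was 0.155. For these genes the spread between rats exceeded the spread between spots in 93.9%. The 13 of them with an SD of at least 1 included Ubd (1.87 between rats, 0.08 between spots), Hamp (1.65 and 0.10), Notch4 (1.64 and 0.04) and Spp1 (1.61 and 0.10).

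**Figure D2:**
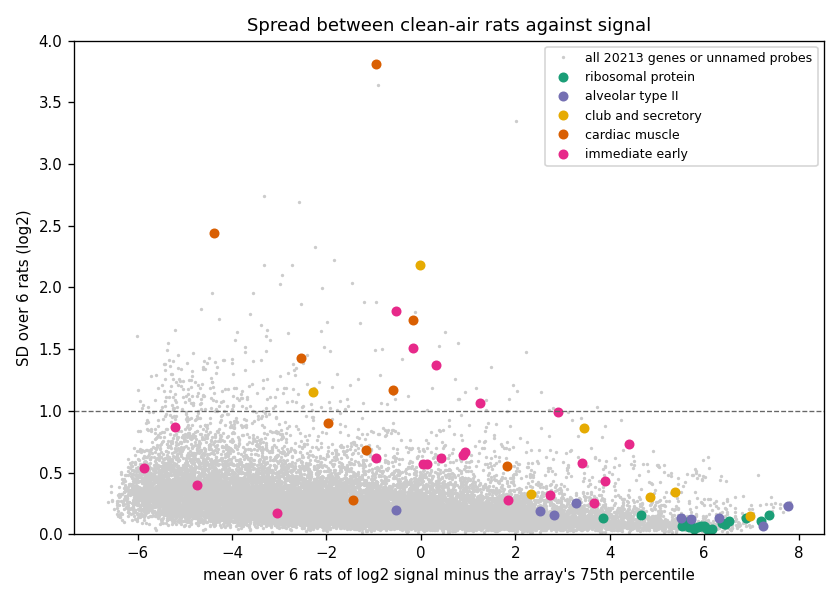
SD between the 6 clean-air rats (y axis, log2) against the mean log2 signal minus the array's 75th percentile (x axis); each grey point is 1 of 20213 genes or unnamed probes detected on all 6 arrays, colored points are members of 5 gene lists, and the dashed line is an SD of 1. Ribosomal and type II genes lie near the bottom, while Myl7 of the cardiac list reaches 3.81.

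The 50 genes with a symbol that varied most had SDs from 1.30 (Ccng1, the last on the list; Gpr20, the first off it, rounds to the same value) to 3.81, against the median of 0.21 over all genes detected on every array. Some of them were high and low in the same rats and are described together, while others shared no order. These groups were seen after ranking and carry no test. The lists named are described only by counts beside the share of all genes. Rat 1 had the highest value for 21 of the 50 and rat 23 the lowest for 19, against 15.2% and 13.2% of all genes detected on every array. Over all 269 genes with an SD of at least 1, rat 1 was the highest for 64 and rat 23 for 62, and rat 23 was the lowest for 42 and rats 2 and 3 for 69 each. In the limma comparison of females with males described last, 0 of the 50 were called, where 3.43% of all genes were, but the unnamed probes A_64_P181171 and A_64_P030407, ranked 4 and 5 by spread among all genes and probes, were called.

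Genes of cardiac muscle formed one group. Myl7, the regulatory light chain of atrial myosin, was at 3.52 in rat 1, -1.52 in rat 2, 2.78 in rat 3, 0.07 in rat 21, -5.61 in rat 22 and -4.92 in rat 23. Rats 1 and 3 were high, rats 22 and 23 were low, and the extremes differed 560.9-fold. Sln, sarcolipin, which regulates the calcium pump of muscle, ran from -6.61 to -0.81 (median -5.17). Cox6a2, the muscle form of a cytochrome oxidase subunit, ran from -3.67 to 1.36 (median -2.05). The cardiac troponin gene Tnnt2, with -1.81, -0.59 and 2.16 as lowest, median and highest, and Fabp3, the fatty acid binding protein of heart, with -5.53, -4.21 and -0.75, followed the same order of rats at the upper end. Tnnc1, Hrc, Pgam2, Myh8 and Hamp, which encodes hepcidin and is expressed in liver and heart, were also highest in rat 1.

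In the list of 15 cardiac genes, 9 were detected on every control array and 13 in at least 1 rat. For 8 of the 9, rats 1 and 3 had the highest values, against 17.2% of all genes detected on every array. The mean of the 13 genes was 0.06 in rat 1, -3.01 in rat 2, -0.60 in rat 3, -2.04 in rat 21, -3.86 in rat 22 and -4.05 in rat 23. Only 9 of these 13 were detected in every rat, so that the low means rest partly on values below detection. Myh6, the fast atrial and ventricular myosin of rodents, ran from 3.46 in rat 1 to -8.30 in rat 23, where it was not well above background. The natriuretic peptide genes Nppa and Nppb, of which Nppa marks atrial muscle, were not well above background on any array. The skeletal muscle list had a mean of -4.15 to -3.29 over the rats, and the smooth muscle list of -0.22 to 0.59. The part that muscle dissected with the lung has in these values was not tested.

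Airway secretory genes made the next group. Scgb3a1, a secretoglobin of the larger airways, was at 2.35 in rat 1, 1.48 in rat 22, 0.85 in rat 3, 0.59 in rat 21, -2.21 in rat 2 and -3.16 in rat 23. Bpifb1, a secreted protein of the airway lining, ran from -3.39 in rat 23 to 1.19 in rat 1, and the cytochrome gene Cyp2a3 from -4.63 in rat 23 to -0.45 in rat 1. Slpi, the secretory leukocyte peptidase inhibitor, was at -3.91 in rat 23 and between -0.97 and 0.05 in the other 5 rats. Of the 7 club and secretory genes detected, 6 were lowest in rat 23, as were 5 of the 7 ciliated genes, against 13.2% of all genes. The list mean of the ciliated genes was between 0.17 in rat 23 and 1.12 in rat 22. Scgb1a1, the brightest of the club list, had an SD of only 0.15 over the same rats.

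Some genes of liver type and of the lipocalin family were high in rat 2. Of the 7 liver genes detected on every array, 3 were highest in rat 2, against 18.8% of all genes. Alb, serum albumin, was at 0.31 in rat 2, -1.64 in rat 21, between -3.19 and -2.68 in rats 1, 22 and 23, and -6.35 in rat 3. Ttr, transthyretin, was at -1.33 in rat 2 and at most -3.71 in the others. Obp3, an odorant-binding lipocalin, was at 0.59 in rat 2, and Mup4l4, of the major urinary protein family, at -0.84, against medians of -4.26 and -4.65. The fibrinogen gene Fgb was highest in rat 2 (-3.84) as well, but was well above background in only 2 rats. The hepatocyte enzymes Tat and Cps1 were not well above background on any control array. The mean of the 9 liver genes detected in at least 1 rat, values below detection included, was -2.97 in rat 2 and between -5.32 and -4.09 in the other 5.

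The ranking also held 3 genes of lymphoid tissue or interferon response. Ccl19 and Cxcl13, chemokines that guide lymphocytes into lymphoid tissue, ran from -1.67 to 2.17 and from -4.99 to -0.95. Both were at or near their highest values in rats 1 and 22 and at their lowest in rats 2 and 23. Ubd, an interferon-inducible ubiquitin-like protein, had its 2 lowest values, -5.07 and -4.43, in the same 2 rats. Of 8 T cell genes, 6 were highest in rat 22 and 7 lowest in rat 2, against 16.1% and 21.1% of all genes, and none had an SD of at least 1. The list mean of T cell genes was -1.97 in rat 22 and -3.15 in rat 2. Vsig4, a complement receptor of resident macrophages, followed neither order and was high in rats 21 and 23 (-1.22 and -1.69) and at most -3.77 in the others. Mast cell genes were ordered differently again, with 6 of 8 highest in rat 2 against 18.8% of all genes, among them Tpsab1, mast cell tryptase, at -1.29 there and -3.61 in rat 1.

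Immediate early genes, which are transcribed within minutes of a stimulus or of handling, were highest in rat 23. Of 21 such genes, all detected in every rat, 16 were highest in rat 23 and 13 lowest in rat 3, against 22.5% and 21.0% of all genes. Fos was at 1.66 in rat 23 and -2.31 in rat 3, Egr1 at 2.33 and -1.94, and Nr4a1 at 3.02 and -0.09. The list mean ran from -0.36 in rat 3 to 1.15 in rat 23. Atf3, on the same list, was an exception, with -4.17 in rat 1 and -0.21 to 0.60 in the other 5. Of 13 clock genes tested between the sexes, 1 was called (Per3), with a list median difference of 0.10. Nr1d1 and Bmal1 were not called. Nr1d1, a repressor of the circadian loop, was between -4.71 and -2.57 in the males and between -0.94 and -0.29 in the females, and its target Bmal1 between 0.41 and 0.59 in the males and between -0.14 and 0.31 in the females.

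The remaining genes split the rats without a shared order. Cd300lg, a mucin-like protein of capillary endothelium, was at 1.95 in rat 1, -5.14 in rat 2, -6.03 in rat 3 and between 1.07 and 1.33 in the females. Kif1c, a kinesin motor, was at 1.37 and 2.86 in rats 1 and 3 and between -1.46 and -0.99 in the others, and Trim16, a ubiquitin ligase, between -1.52 and -0.61 in rats 2, 3 and 21 and between -5.05 and -4.48 in the others. In several genes a lone rat stood apart. Acap1, an activator of Arf GTPases, was at -4.98 in rat 1 and -0.94 to 0.06 elsewhere. RT1-CE10, of MHC class I, was at -4.73 in rat 2 and -0.70 to 0.26 elsewhere. For Trim16 and Slc9b2, the only genes of the 50 with another probe detected in every rat, the other probe had an SD of 0.28 and 0.42, so that the spread of those genes rests on 1 of their probes.

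**Figure D3:**
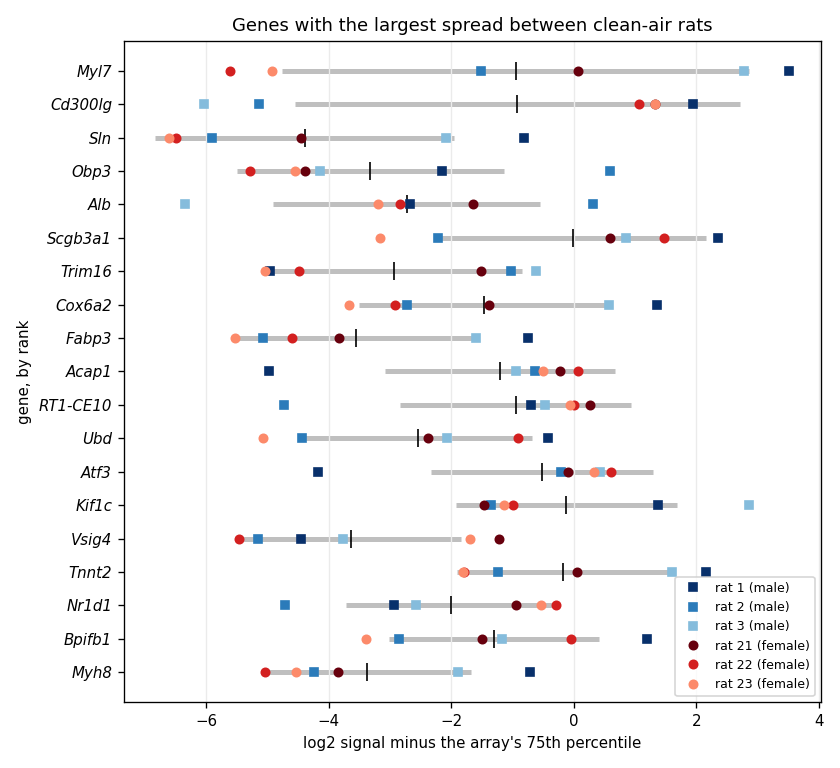
Log2 signal minus the array's 75th percentile (x axis) of 19 of the 20 genes with a symbol that had the largest SD between clean-air rats (y axis, by rank); squares are males, circles females, the tick is the mean and the grey bar is 1 SD to each side. Myl7 runs from -5.61 to 3.52, and Acap1, RT1-CE10 and Atf3 each have a lone low rat.

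**Figure D4:**
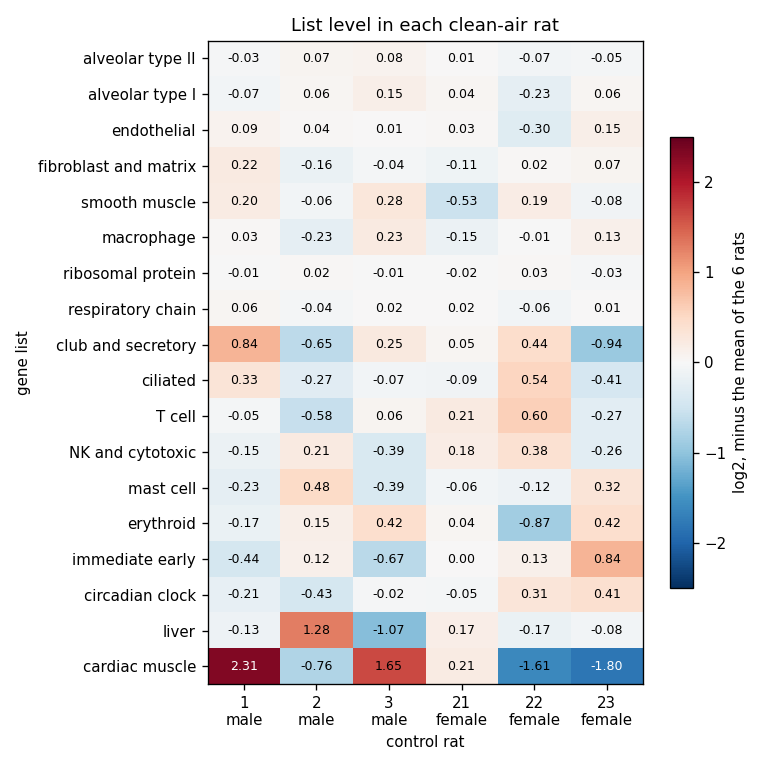
Mean log2 level of 18 gene lists (rows) in each clean-air rat (columns), with the mean of the 6 rats subtracted (color and number). Type I, type II, ribosomal and respiratory chain lists stay near 0, and the cardiac list has the widest range. List means include members that were not detected in every rat.

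The same genes were then looked at in the exposed rats, which the ranking did not use. Of the 50, 30 had an SD of at least 1 in the low-dose group, 28 in the middle-dose group and 34 in the high-dose group, against 1.09%, 1.06% and 1.13% of all genes detected on every control array. An SD of at least 1 in every exposed group was found for 22 of the 50, and in no exposed group for 10. Myl7 had SDs of 3.52, 2.00 and 5.00 in the low-dose, middle-dose and high-dose groups and Cd300lg of 3.29, 2.81 and 3.90. Scgb3a1, Sln, Trim16 and Vsig4 had SDs of at least 1.60 in each. Acap1, with 0.25, 0.29 and 0.39, and Atf3, with 0.24, 0.33 and 0.26, had no such spread among exposed rats, and neither did Notch4 (0.25, 0.25 and 0.57) or RGD1309362 (0.20, 0.40 and 0.42).

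**Figure D5:**
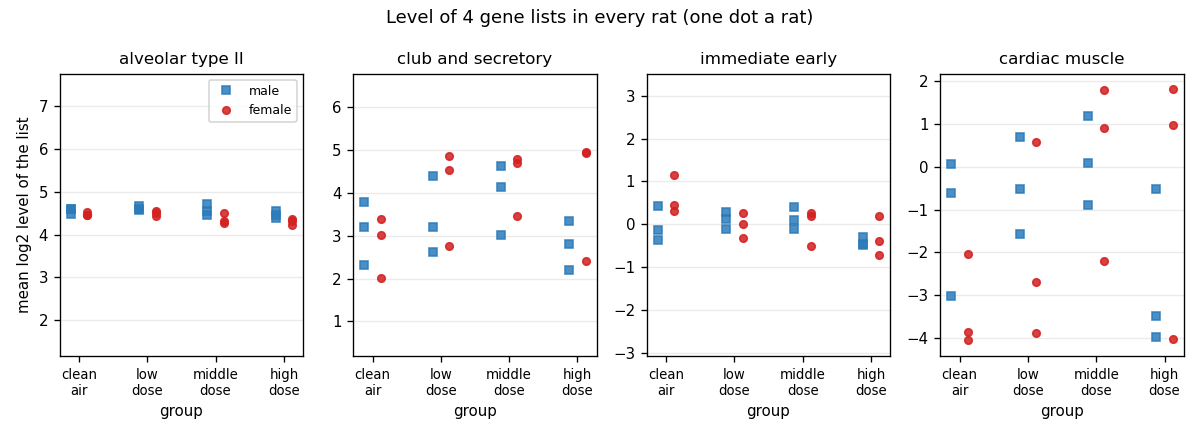
Mean log2 level (y axis, same span in all panels) of 4 gene lists in every rat of the clean-air group and the 3 hexanal groups (x axis); each dot is a rat, squares are males and circles females. The cardiac list spreads over several units within every group, whereas the type II list stays between 4.22 and 4.71.

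The cardiac list mean ranged from -4.05 to 0.06 in the control rats, from -3.88 to 0.70 in the low-dose group, from -2.19 to 1.80 in the middle-dose group and from -4.02 to 1.81 in the high-dose group. This mean includes genes that were not detected in every control rat. The club and secretory list ranged from 2.02 to 3.80 in the control rats, from 2.63 to 4.86 (median 3.80) in the low-dose group, from 3.02 to 4.79 (median 4.38) in the middle-dose group and from 2.19 to 4.96 (median 3.08) in the high-dose group.

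The last comparison was between the sexes, the only labelled difference among the control rats. Eif2s3, an X-linked translation factor, was the only 1 of 10 sex-linked genes listed that could be matched on the array. It was at 2.00 to 2.07 in the males and 2.56 to 2.62 in the females, 1.47-fold higher in females (log2 difference 0.56 ± 0.07, SE, adjusted p = 0.0341, limma), and the groups did not overlap. Among 21064 genes or unnamed probes detected in all rats of either sex, 722 (3.43%) were called at an adjusted p below 0.05, 622 (2.95%) higher and 100 (0.475%) lower in females. These counts depended strongly on the setting: 0 were called after another background correction (2288 genes had an unadjusted p below 0.05 there), 1569 were higher and 610 lower without rat 2, and at most 4 were higher and 2 lower without any other rat. By the criterion of a 1.5-fold difference with an unadjusted p below 0.05, 8.2% of genes differed in control rats and 4.75% in exposed rats. With the slide as a random block over all 24 arrays, 277 were higher and 106 lower.

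The named genes with the largest difference included some that other rats also showed. Cemip2, a hyaluronan-degrading enzyme of the cell surface, was at 0.00 to 0.44 in the males and -1.30 to -1.19 in the females, a log2 difference of -1.48 ± 0.13 (adjusted p = 0.0303, limma). In exposed rats, fitted with dose as a term, the difference was -0.76 ± 0.09 (adjusted p = 0.000133, limma). Klf15, a transcription factor of metabolism that responds to glucocorticoids, was at 2.57 to 2.71 in males and 0.71 to 1.73 in females (-1.48 ± 0.26, adjusted p = 0.0456, limma), and -0.65 ± 0.14 in exposed rats (adjusted p = 0.00431, limma). Map3k6, a stress-activated kinase, and Tmem252 were also lower in females, by 1.48 and 1.82 on the log2 scale, and both were lower in exposed females too (-0.94 and -1.25). Uncx, a homeobox factor with a dim signal, was higher in females in both sets, by 1.74 and 2.01. Its control call was lost in the fit of all 24 arrays with slide as a random block (adjusted p = 0.111, limma).

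Others did not pass the test in exposed rats. Ptx3, a soluble pattern recognition protein, was at -4.25 to -4.06 in males and -2.92 to -1.91 in females (1.77 ± 0.26, adjusted p = 0.0371, limma), but the difference was 0.51 ± 0.28 in exposed rats (adjusted p = 0.216). Rprml was lower in control females (-1.53 ± 0.23, adjusted p = 0.0397, limma) and its difference in exposed rats was -0.28 ± 0.26. In the fit of all 24 arrays with the slide as a block, the control calls of Ptx3 and Rprml were lost (adjusted p = 0.0912 and 0.0596, limma). Dusp29 and Dntt were not well above background in any control male, and Fgf20 was not in rats 1 and 2. They entered the comparison only through the females, so that their calls carry no weight of their own. Against the detection floor, Fgf20 was at least 1.97-fold, Dusp29 at least 1.82-fold and Dntt at least 2.57-fold higher in females. The Fgf20 fit had no value for rat 3, whose spot was above background but was left out as non-uniform, and none of these 3 passed in exposed rats. The control difference minus the exposed difference was tested as an interaction, and none of the 10 named genes passed it (lowest adjusted p = 0.0732, limma).

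Of the 622 genes higher in control females, 168 (27.0%) were also called higher in exposed females, against 11.5% of all genes, and 0 were called lower. Of the 100 lower in control females, 44 (44.0%) were called lower in exposed females, against 7.06%, and 1 was called higher. The 622 and 100 include genes that entered through 1 sex alone. With detection on all 6 control arrays required, 565 were higher and 97 lower, and the overlap was not counted for these. The shared genes were 6.9% and 3.0% of those called in the exposed rats, where 18.6% of genes were called in all. Exposed rats shared slides with control rats of the same sex for 1 array on each control slide. Every other slide also held rats of 1 sex, so that sex lay between slides in the exposed rats too. Among 300 list genes tested, 8 (2.67%) were called, all higher in females, a share near the 3.43% of all genes. They were Krt5, Prg2, Matn1, Col9a1, Dntt, Per3, Plk1 and Eif2s3, and in the fit of all 24 arrays with the slide as a block Col9a1 and Eif2s3 alone passed. Matn1 and Col9a1, genes of cartilage matrix, differed by 1.23 and 0.65 in control rats and passed in exposed rats as well, with 0.93 and 0.43.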

How the data were processed

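Lung RNA of 24 rats was measured on one-colour arrays. The authors extracted spots with Agilent Feature Extraction 11.5.1.1, and the deposited intensities are processed signals, corrected for background on the array itself with no scaling across arrays. The deposited series table holds the same signal for 99.33% to 99.43% of probes on the control arrays, within 0.1%. The normalization of the mRNA values is not given in the sources used here.

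From these, control spots and outlier spots were left out, spots of a probe were averaged, and log2 signals were set relative to the 75th percentile of the array. A probe counted as well above background where most of its spots had that flag. Of 30367 probes, 18355 (60.4%) were named by accession through RefSeq gene and promoter tables (GRCr8), giving 15443 genes, each represented by its brightest probe. Gene lists hold 407 genes, 362 of them matched. A list mean is over members detected in at least 1 control rat and measured on all 24 arrays. Spread was ranked among genes detected on all 6 control arrays. The genes named are the first 20 by signal and by spread, others of the first 50 of each, list members, and 5 genes in each direction of the sex comparison. One gene of the first 20 by spread is not reported here. Undetected genes are named only as list members, since none was well above background on all 6 arrays of an exposed group. The members and lists were chosen with earlier results of these data known.

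Females and males were compared by limma 3.58.1 (R 4.3.3), two-sided, with Benjamini-Hochberg adjustment, among genes well above background on all 3 arrays of either sex. On simulated data the test was checked. Summaries used Python with pandas. Alternatives covered detection flag, scaling, background correction (normexp, offset 50), filters, probes, slide, array weights, the methods' t-test and leaving out each rat. Rats are separate animals, and p-values among the control rats alone set the sex difference against the spread between rats of the same sex. Control rats of the same sex shared a slide, so that variation between slides was not part of that spread. Those p-values therefore cannot tell a difference of sex from a difference of slide.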

Additional observations from a re-analysis of the deposited data

Results flagged for a closer look

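Single rats that stood far from the other 5 were looked for in the 50 brightest genes, 49 of the 50 genes with the largest spread and 29 list means, by the gap to the nearest rat over the whole range against Dixon's critical value for 6 animals. Chance marks about 1 in 20 such sets, and 15 of 128 were marked, 11 of them among genes chosen for their spread, for which a lone rat is one way onto the list. With a low lone rat these were Acap1 (rat 1, ratio 0.802), Atf3 (rat 1, 0.83), RT1-CE10 (rat 2, 0.808), RGD1309362 (rat 2, 0.749), Notch4 (rat 23, 0.661) and Slpi (rat 23, 0.742). With a high lone rat they were Ttr (rat 2, 0.628), Pcdhb2 (rat 21, 0.885), Sypl2 (rat 21, 0.668), Ctnna2 (rat 23, 0.799) and Slc9b2 (rat 23, 0.807).

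Among the brightest genes, Hbb-b1 was low in rat 22 (ratio 0.627) and Rps10 was high in rat 2 (0.667), the latter within a range of 6.33 to 6.57. The endothelial list was low in rat 22 (0.689), at 1.66, and the list of cytoskeleton, iron and translation genes was high in rat 3 (0.667), at 5.89 against 5.77 to 5.81 in the other rats. With 2 of 50 bright genes and 2 of 29 list means marked, both shares were near the 1 in 20 that chance marks.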

How the results depend on the processing

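The number of probes detected in every control rat and the 50 brightest genes changed little. The brightest 50 shared between 44 and 50 genes with each alternative scaling, background correction, centre or probe choice, and between 49 and 50 when a rat was left out. The detected probes numbered 25232 with the positive-and-significant flag and 22497 to 22642 when a rat was left out. Undetected probes fell to 1650 with that flag and ranged from 4654 to 4938 when a rat was left out. Of the 50 genes with the largest spread, 38 to 49 were shared under other scalings, background correction, each probe counted or the SD within sex, 39 to 43 when a rat was left out, 19 with the median absolute deviation and 3 when detection on 1 array was enough. Genes with an SD of at least 1 numbered 2093 with normexp, 1502 with detection on 1 array, 1547 with no filter and 250 to 298 when a rat was left out.

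The sex calls in control rats were the least stable. With detection on all 6 arrays required, 565 genes were higher and 97 lower in females. Genes higher and lower in females numbered 64 and 35 with quantile normalization, 226 and 81 with median scaling, 2 and 2 in the authors' table, 0 and 0 with normexp (unadjusted p below 0.05 for 2288) and with no filter (5448), 1022 and 375 with all 24 arrays fitted as 8 groups of sex and dose, 277 and 106 with the slide block in that fit, 19 and 1 with the methods' t-test, 1926 and 548 with array weights, and 0 to 1569 and 0 to 610 when a rat was left out (1569 and 610 without rat 2, at most 4 and 2 without any other rat). The 10 named genes kept their direction in all 167 such fits and passed in 58. They were chosen for large differences in these same rats, so that the kept direction carries no weight. In exposed rats the slide block gave 1201 and 587 and normexp 727 and 659. The cause of these changes was not tested. No paired analysis was possible because the control rats share no replicate numbers between the sexes or with other groups. The number of rats limits all of these values, and dim probes carry the least certain ones.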

Other observations

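Among unnamed probes detected in every control rat, A_64_P030407 was higher in control females by 4.84 on the log2 scale (adjusted p = 0.0303, limma), and by 4.00 in exposed females. A_64_P181171 differed by -4.96 in control rats (adjusted p = 0.0303, limma) and by -0.63 in exposed rats (adjusted p = 0.735, limma), and its control call was lost once slide entered as a random block (adjusted p = 0.178, limma). These probes were chosen after their values were seen.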
